A study of Mus musculus with 6 samples.

Results

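The type I interferon-stimulated genes described here are 38 listed mouse genes that cells transcribe in answer to type I interferon. They were followed in stem and progenitor cells sorted from the bone marrow of mice with colitis and of control mice. All 38 were found in the deposited expression table by their Ensembl identifiers. Those with at least 1 TPM, a transcript level scaled to gene length and library, in at least 3 of the 6 libraries were kept. That left 36 of the 38, among 13496 genes that passed the same filter of 56750 rows. The genes were listed for their known function and not for their values in these libraries, but the list was drawn up with earlier results of the same data known.

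Gene expression was measured by RNA sequencing in 2 groups of 3 C57BL/6 mice. DIC mice had colitis induced with dextran sulfate sodium (DSS), an agent that injures the lining of the colon, given at 2.5% for 5 days, and control mice carry only that label. From both groups the Lin- Sca1+ cKit+ (LSK) cells of the femoral marrow were sorted by flow cytometry, the fraction in which blood stem cells and their multipotent offspring are found. The DIC libraries are numbered 1, 2 and 3 and the controls 1, 2 and 4, and neither the age nor the sex of the mice was used.

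Type I interferons bind the receptor pair Ifnar1 and Ifnar2, whose kinases Jak1 and Tyk2 act on Stat2. Together with Irf9 it takes part in a complex called ISGF3, which binds the interferon-stimulated response element (ISRE) in the promoters of its target genes. Many of the products block viral replication, and in mice type I interferon also drives dormant hematopoietic stem cells into the cell cycle. Sca1, encoded by Ly6a and used to sort these cells, is itself induced by interferon.

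Some of the promoters of the genes hold letters that match the element. A core of it, 2 copies of GAAA with a gap of 2 bases, was searched on both strands from 250 bases before to 50 bases after the start of each gene in a RefSeq table of the build GRCm38.p6, which held 27 of the 38 genes. It was found in 14 of the 27 (51.9%), against 3.99% of 27025 genes in the table. The interferon-gamma element TTCNNNGAA, which overlaps the ISRE core in the promoter of Bst2 alone, was found in 5 of the 27 (18.5%), against 9.55% of all genes. A match is a match of letters and not a measured binding site. The 6 promoters printed here show how the core is arranged in genes that behaved differently in these libraries. Each is the 200 bases before the start, 5′ to 3′ along the gene, with the core in capitals. On the opposite strand the core appears as a pair of TTTC.
Isg15 (GRCm38.p6, chr4:156200819-156201018, minus strand): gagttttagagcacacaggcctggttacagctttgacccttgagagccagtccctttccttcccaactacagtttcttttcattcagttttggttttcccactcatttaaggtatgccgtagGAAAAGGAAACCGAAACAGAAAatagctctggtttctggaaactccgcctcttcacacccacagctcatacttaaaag
Oas1a (GRCm38.p6, chr5:120907526-120907725, minus strand): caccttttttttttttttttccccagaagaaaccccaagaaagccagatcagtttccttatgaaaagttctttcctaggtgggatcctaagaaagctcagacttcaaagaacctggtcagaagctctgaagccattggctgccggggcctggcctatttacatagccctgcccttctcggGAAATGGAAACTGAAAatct
Bst2 (GRCm38.p6, chr8:71537473-71537672, minus strand): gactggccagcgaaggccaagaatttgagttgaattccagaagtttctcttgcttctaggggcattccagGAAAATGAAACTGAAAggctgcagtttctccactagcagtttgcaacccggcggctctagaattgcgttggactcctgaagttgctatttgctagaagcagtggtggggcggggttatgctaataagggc
Ifit1 (GRCm38.p6, chr19:34640689-34640888, plus strand): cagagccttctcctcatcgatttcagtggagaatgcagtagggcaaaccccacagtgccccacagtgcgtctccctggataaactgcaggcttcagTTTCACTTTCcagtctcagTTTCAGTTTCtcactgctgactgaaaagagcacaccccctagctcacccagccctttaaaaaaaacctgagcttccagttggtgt
Ifit3 (GRCm38.p6, chr19:34583329-34583528, plus strand): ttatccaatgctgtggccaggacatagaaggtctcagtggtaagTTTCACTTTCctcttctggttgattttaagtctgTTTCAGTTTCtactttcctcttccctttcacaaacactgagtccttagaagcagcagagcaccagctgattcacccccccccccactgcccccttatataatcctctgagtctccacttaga
Ifit3b (GRCm38.p6, chr19:34607757-34607956, plus strand): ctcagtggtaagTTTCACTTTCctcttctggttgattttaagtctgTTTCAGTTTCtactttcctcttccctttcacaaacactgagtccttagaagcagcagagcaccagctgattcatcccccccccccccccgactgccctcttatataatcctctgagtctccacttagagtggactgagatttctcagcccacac
Isg15 held 3 overlapping copies of the core, and Oas1a and Bst2 held 2 each, overlapping as well. In Ifit1, Ifit3 and Ifit3b 2 separate copies lay on the opposite strand. The windows of Ifit3 and its neighbour Ifit3b matched at 167 of 168 aligned bases, and 64 further positions of the alignment were gaps. Their transcripts are 97.8% identical over 1700 bases, which makes the levels of both genes uncertain. The core was found in 3 of the 6 tested genes with a promoter entry that were highest in DIC 1, in 1 of 1 highest in DIC 3 and in 9 of 19 highest in control 4.

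Before the results, the state of the libraries bears on every value. Of 10 listed LSK markers 9 were tested, with 5 positive and 4 negative fold changes, and Slamf1 stayed below the filter. Kit measured 90.7, 82.3 and 95.2 TPM in DIC 1 to 3 and 54.2, 99.5 and 68.2 TPM in controls 1, 2 and 4. The most abundant, Cd34 and Cd48, lay lower in every DIC library than in every control, as did 18.4% of all genes. Cd34 averaged 83.9 ± 17.5 TPM in DIC and 119 ± 14.8 TPM in control (SD, n = 3 each). Cd48 averaged 149 ± 10.7 TPM in DIC and 238 ± 23.5 TPM in control. Transcripts of a list of 16 neutrophil markers, a lineage that the sort should remove, summed to between 153700 and 225041 TPM in DIC libraries and between 29775 and 124638 TPM in controls, with control 2 the highest control. Neutrophil transcripts were thus present in every library of the cells labelled Lin-. All 16 had a positive fold change, and Stfa2l1 alone was listed at 0 in a library, control 4. S100a8, the most abundant, lay between 63966 and 105476 TPM in DIC libraries and between 13283 and 52974 TPM in controls. In bulk RNA, fewer cells of a type and less RNA per cell cannot be told apart.

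No interferon-stimulated gene passed the test between DIC and control mice. With limma on log2(TPM + 1) and Benjamini-Hochberg adjustment over all 13496 genes, 0 of 36 were called at 0.05, where the background was 0.0593% of all genes, 0.037% higher and 0.0222% lower in DIC. Their adjusted p-values lay between 0.212 and 0.874. At an unadjusted p under 0.05 there were 3 of 36 (8.33%), against 20.2% of all tested genes. Ifit2 was higher in DIC (6.43% of all genes), and Bst2 and Ly6e were lower (13.8% of all genes). Fold changes ran from -1.43 for Bst2 to 1.01 for Samd9l on the log2 scale. They were negative in 25 genes and positive in 11, with a median of -0.39, beside a median of -0.08, 58.5% negative and 41.5% positive over all genes.

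The genes varied widely between mice of the same group. Control 4 held the highest value of the 6 libraries in 29 of the 36 genes (80.6%), against 23.5% of all tested genes. In 15 genes (41.7%) it exceeded every other library at least 2-fold, which held for 1.16% of all genes. DIC 1 was the highest library for Cmpk2, Ddx58, Ifit2, Ifit3, Oas3 and Samd9l, and DIC 3 for Stat2 (2.78% against 11.5% of all genes). No member was highest in DIC 2, control 1 or control 2, which held the highest value of 6.18%, 24.0% and 16.7% of all genes. Among the controls alone, control 4 was the highest in 31 genes (86.1% against 30.9%). Control 1 was the lowest control in 27 genes (75.0% against 31.1%), and the order control 4, then 2, then 1 held in 23 of 36, against 1759 of 13496. The median range of log2(TPM + 1) was 0.67 among the DIC libraries and 1.67 among the controls, where all genes had 0.34 in DIC and 0.51 in control. With 1 library left out, the median range of the controls was 1.14 without control 1, 1.40 without control 2 and 0.543 without control 4. That of DIC was 0.359, 0.401 and 0.657 without DIC 1, 2 and 3. A range over 2 libraries tends to be narrower than one over 3, so these values compare only with each other. Without control 4 the median range of the controls thus lay between the lowest and the highest of these DIC ranges. The range exceeded 1 in DIC for 13 of 36 genes (36.1% against 9.85%) and in control for 30 (83.3% against 15.9%), and it was wider in control for 31 (86.1% against 66.7%).

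The DIC libraries also shared an order across genes. DIC 1 was the highest of the 3 in 29 of 36 genes (80.6% against 33.6%), and the order DIC 1, then 3, then 2 held in 22 (61.1% against 24.1%). DIC 2 was the lowest of the 3 in 24 (66.7% against 44.0%). DIC 1 lay above DIC 2 in 31 genes (86.1% against 53.1%), and at least 2-fold above it in 14 (38.9% against 6.94%). Over all 6 libraries, DIC 2 held the lowest value of 13 genes (36.1% against 19.6%), DIC 3 of 5 (13.9% against 9.26%), control 1 of 14 (38.9% against 18.0%) and control 2 of 0 (against 7.05%). Bst2, Ifi203 and Ly6e were lowest in DIC 1 and Ifit2 in control 4. The mean log2(TPM + 1) of the 36 genes was 3.84, 3.04 and 3.45 in DIC 1 to 3, against 3.06, 3.51 and 4.65 in controls 1, 2 and 4. By that mean control 4 stood above all 3 DIC libraries, control 1 lay next to DIC 2, and the groups overlapped.

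**Figure D1:**
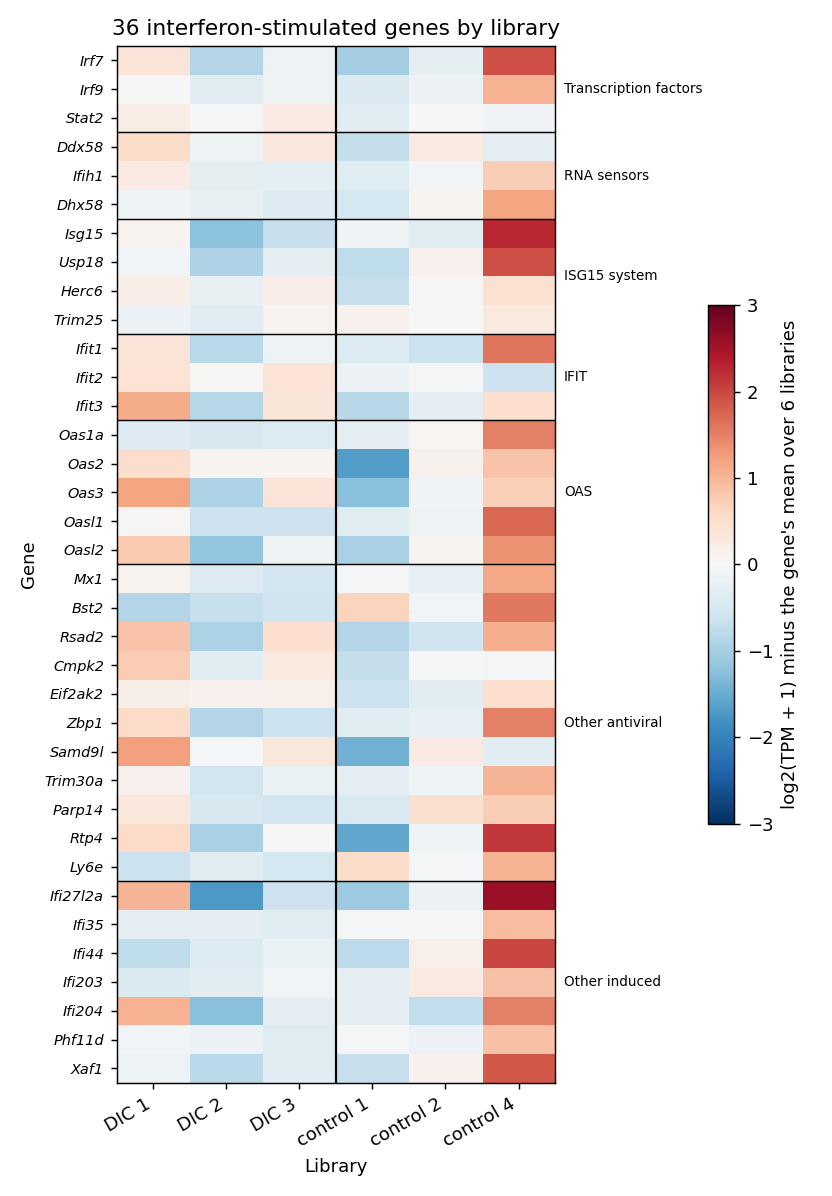
Level of the 36 tested interferon-stimulated genes in DIC 1 to 3 and controls 1, 2 and 4 (columns), as log2(TPM + 1) minus the mean of the gene over the 6 libraries, with genes grouped by role (rows). Red is above and blue below the mean of the gene, and the control 4 column is the highest for 29 of the 36 genes.

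**Figure D2:**
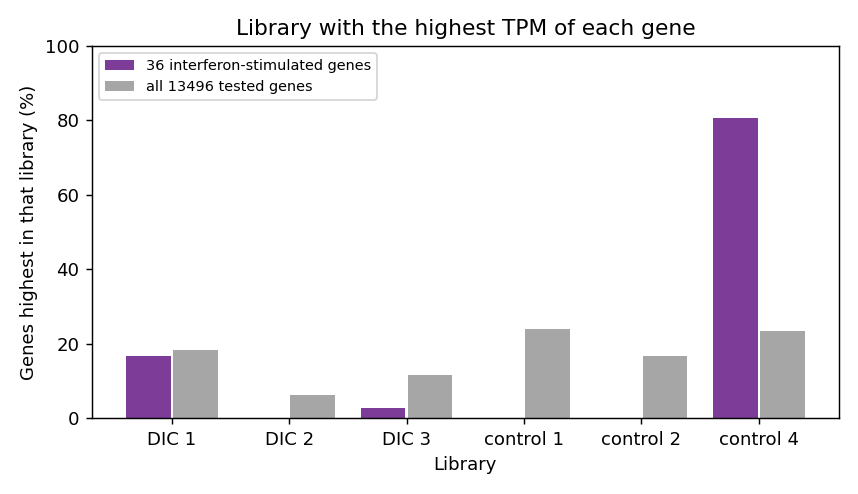
Percentage of genes whose highest TPM lay in each library, for the 36 interferon-stimulated genes (purple) and all 13496 tested genes (grey). Control 4 held 80.6% of the interferon-stimulated genes and 23.5% of all genes, and DIC 1 held 16.7% and 18.2%.

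The sign of the comparison rested on control 4. Without it, the median fold change of the 36 genes was 0.14 and 20 were positive (55.6%, against 40.5% of all genes). Limma then called 0 genes of all 13496, while 1458 (10.8%) lay at an unadjusted p under 0.05. The sign turned from negative to positive in 9 genes, namely Irf7, Irf9, Ifih1, Ifit1, Oasl2, Trim30a, Rtp4, Ifi27l2a and Ifi204. It was negative with and without control 4 in 16 genes and positive in both in 11. Without control 1 the median was -0.70 and 29 of 36 fold changes were negative (80.6%, against 59.9% of all genes). Without control 2, Bst2 and Ly6e passed the test, 2 of 36 against a background of 12.4% of all genes in either direction and 8.45% lower in DIC. Their fold changes were then -1.84 for Bst2 (limma adjusted p = 0.022) and -1.30 for Ly6e (limma adjusted p = 0.0205).

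**Figure D3:**
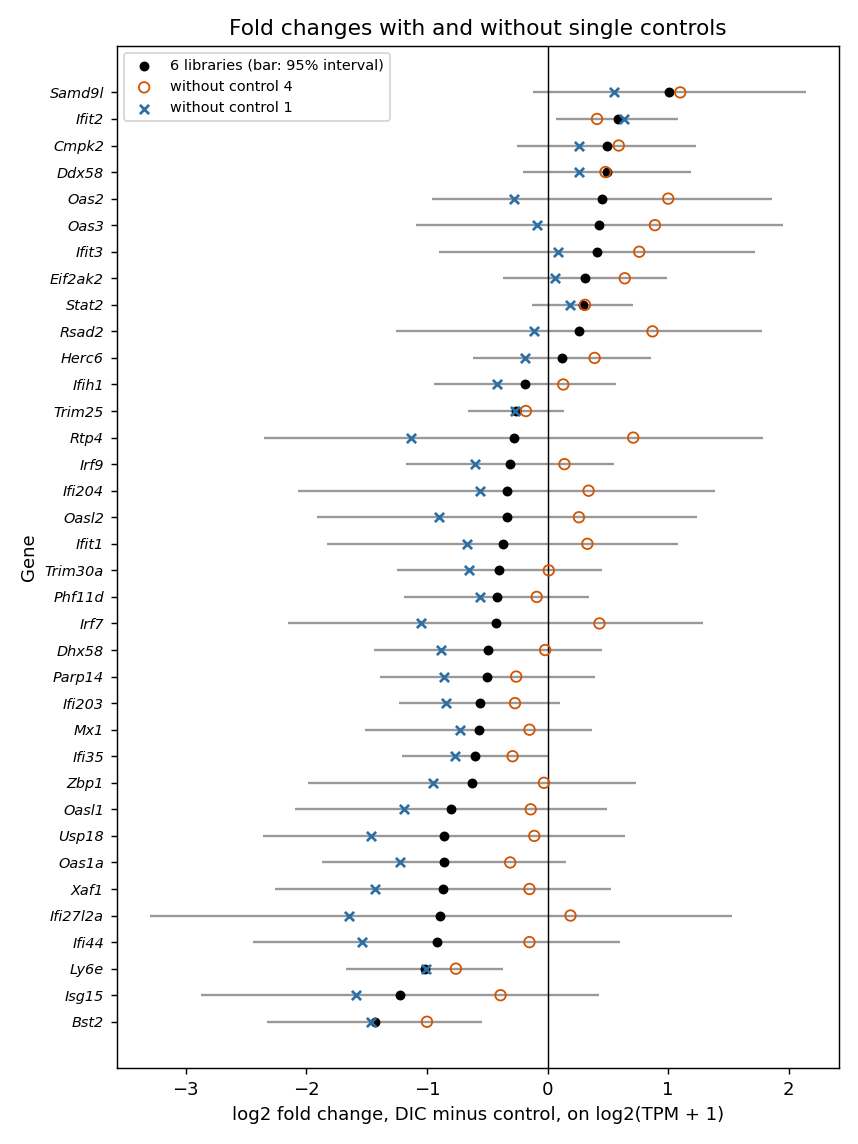
Log2 fold change of each of the 36 genes, DIC minus control, on the log2(TPM + 1) scale, with its 95% interval from limma over all 6 libraries (black), and without control 4 (orange circles) or control 1 (blue crosses). The median is -0.39 with all libraries, 0.14 without control 4 and -0.70 without control 1.

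Transcription factors of the response gave no common direction, with 2 negative and 1 positive fold change. Irf7, which amplifies interferon production, measured 16.2, 6.1 and 10.9 TPM in DIC 1 to 3 and 5.42, 9.96 and 49.3 TPM in controls 1, 2 and 4. The groups overlapped, and control 4 lay 3.05-fold above the next library. Its log2 fold change was -0.43 ± 0.73 (SE, limma adjusted p = 0.766). Irf9, the DNA-binding part of ISGF3, measured 28.2, 21.9 and 24.96 TPM in DIC and 20.5, 24.7 and 58.9 TPM in control. Apart from control 4 its libraries lay close together (log2 fold change -0.31 ± 0.37 (SE), limma adjusted p = 0.654). Stat2, a partner of Irf9 in ISGF3, measured 9.63, 7.80 and 9.66 TPM in DIC and 6.16, 8.08 and 7.42 TPM in control. It was among the members with the narrowest ranges and was not raised in control 4 (log2 fold change 0.29 ± 0.18 (SE), limma adjusted p = 0.387).

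The cytosolic RNA sensors likewise overlapped between the groups. Ddx58, which encodes RIG-I, measured 13.2, 7.72 and 11.4 TPM in DIC and 4.96, 10.5 and 6.99 TPM in control. DIC 1 was the highest library and control 1 the lowest (log2 fold change 0.49 ± 0.29 (SE), limma adjusted p = 0.376). Dhx58, which encodes the regulatory sensor LGP2, measured 10.6, 9.75 and 8.66 TPM in DIC and 7.82, 12.3 and 27.7 TPM in control. The DIC libraries lay within a narrow range between control 1 and control 2 (log2 fold change -0.49 ± 0.40 (SE), limma adjusted p = 0.506). Ifih1, which encodes the sensor MDA5, averaged 4.58 ± 1.2 TPM in DIC and 5.61 ± 2.78 TPM in control (SD, n = 3 each).

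Isg15, a ubiquitin-like protein joined to other proteins after interferon, had one of the largest negative fold changes of the set. It measured 9.43, 3.13 and 5.05 TPM in DIC 1 to 3 and 7.89, 6.86 and 45.9 TPM in controls 1, 2 and 4. DIC 1 lay above controls 1 and 2, and control 4 lay 4.87-fold above DIC 1, the next library. This gave a log2 fold change of -1.22 ± 0.70 (SE, limma adjusted p = 0.357), and -0.39 without control 4. Usp18, the protease that removes Isg15 and damps receptor signalling, measured 6.73, 3.32 and 5.79 TPM in DIC and 3.86, 7.96 and 30.3 TPM in control. Control 4 again stood far above the other libraries, among which the groups overlapped (log2 fold change -0.86 ± 0.64 (SE), limma adjusted p = 0.465, and -0.11 without control 4). Trim25, a ubiquitin ligase that activates RIG-I, measured 11.9, 10.6 and 14.5 TPM in DIC and 14.8, 13.4 and 16.8 TPM in control (log2 fold change -0.26 ± 0.17 (SE), limma adjusted p = 0.411). Its groups overlapped at DIC 3. Herc6, the main Isg15 ligase of the mouse, averaged 6.00 ± 1.11 TPM in DIC and 5.72 ± 2.54 TPM in control (SD, n = 3 each).

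The IFIT genes, whose products bind foreign RNA, held the only gene of the set that was higher in every DIC library than in every control. Ifit2 measured 11.1, 8.32 and 11.0 TPM in DIC and 7.03, 7.66 and 4.89 TPM in control. The groups did not overlap, and control 4, the highest library for most of the set, was here the lowest of all 6. Its log2 fold change of 0.58 ± 0.21 (SE) did not pass (limma adjusted p = 0.22), and 7.08% of all genes lay higher in DIC with no overlap. Ifit1 measured 3.33, 0.89 and 2.0 TPM in DIC and 1.5, 1.13 and 9.05 TPM in control. It overlapped and followed the more common pattern, with control 4 2.72-fold above DIC 1 (log2 fold change -0.37 ± 0.62 (SE), limma adjusted p = 0.758). Ifit3 measured 4.56, 0.40 and 2.27 TPM in DIC and 0.43, 1.11 and 2.6 TPM in control. DIC 1 was its highest library and lay 11.4-fold above DIC 2 at these low levels. Its near copy Ifit3b stayed below the filter, at 2.32, 0.10 and 0.63 TPM in DIC and 0.14, 0.04 and 0.36 TPM in control.

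The OAS genes encode enzymes that make short oligoadenylates, which activate RNase L, together with related proteins, some of which lack this activity. Oas1a measured 18.7, 17.6 and 18.6 TPM in DIC and 20.2, 26.1 and 73.4 TPM in control. Every DIC library lay below every control, as in 18.4% of all genes, and the 3 DIC values were nearly equal. For Oas1a the log2 fold change was -0.86 ± 0.43 (SE, limma adjusted p = 0.303), and -0.31 without control 4. Oas1a is 97.6% identical to Oas1g over 1861 bases, so its level is uncertain. Oas2 measured 7.01, 4.90 and 4.86 TPM in DIC and 0.74, 5.13 and 9.17 TPM in control. Here the controls spanned 12.4-fold and enclosed all DIC libraries (log2 fold change 0.45 ± 0.60 (SE), limma adjusted p = 0.695). Oas3 and Oasl2 instead varied strongly among DIC mice, where DIC 1 exceeded DIC 2 6.24-fold in Oas3 and 4.40-fold in Oasl2. The log2 fold change was 0.43 for Oas3, -0.34 for Oasl2 and -0.80 for Oasl1, which represses Irf7 translation in mice.

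Among the other antiviral effectors were the genes with the lowest p-values, both encoding membrane-anchored proteins. Bst2, or tetherin, which holds budding virus particles at the cell surface, measured 43.7, 49.7 and 53.4 TPM in DIC and 129, 75.8 and 243 TPM in control. All DIC libraries lay below all controls, and the difference was also present without control 4. Bst2 had a log2 fold change of -1.43 ± 0.38 (SE, 95% interval -2.33 to -0.54, limma adjusted p = 0.212), and -1.0 without control 4. Ly6e, a surface protein that hinders entry of some viruses, was the most abundant of the set at 1024, 1244 and 1101 TPM in DIC and 2324, 1550 and 3278 TPM in control. Again the groups did not overlap, with control 2 nearest to the DIC libraries. Ly6e had a log2 fold change of -1.02 ± 0.28 (SE, 95% interval -1.67 to -0.37, limma adjusted p = 0.212), and -0.76 without control 4. Bst2, Ly6e, Oas1a and Ifi35 were the 4 genes lower in DIC with no overlap, 11.1% of the set against 18.4% of all genes.

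Bst2 also marks plasmacytoid dendritic cells in the mouse. The other 10 markers on the list of that cell type summed to between 78.9 and 88.3 TPM in DIC libraries and between 129 and 159 TPM in controls, and all 9 tested markers on the list, Bst2 among them, had negative fold changes. Of its defining markers, Siglech measured 4.47, 2.43 and 1.41 TPM in DIC and 11.3, 4.48 and 4.84 TPM in control. Whether that list plays a part in the Bst2 values was not tested.

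Rtp4, an antiviral protein of the receptor transporter family, had the widest spread among the controls. It measured 31.8, 10.3 and 21.0 TPM in DIC and 6.49, 19.2 and 95.5 TPM in control. The controls spanned 14.7-fold and enclosed all DIC libraries (log2 fold change -0.28 ± 0.88 (SE), limma adjusted p = 0.874, and 0.71 without control 4). The remaining effectors had log2 fold changes between -0.63 and 1.01, and none passed. Samd9l, a restrainer of cell growth and viral replication in hematopoietic cells, averaged 17.6 ± 8.75 TPM in DIC and 8.59 ± 4.94 TPM in control (SD, n = 3 each). Its log2 fold change of 1.01 was the highest of the set, but DIC 2 lay below control 2, so the groups overlapped. Cmpk2, a mitochondrial nucleotide kinase, averaged 26.5 ± 10.0 TPM in DIC and 18.1 ± 4.86 TPM in control. Rsad2, or viperin, its genomic neighbour, averaged 2.99 ± 2.12 TPM in DIC and 2.56 ± 2.84 TPM in control, with DIC 1 7.35-fold above DIC 2. Eif2ak2, the RNA-activated kinase PKR that halts translation, was nearly constant over the DIC libraries at 11.8 ± 0.239 TPM, against 10.0 ± 4.76 TPM in control. The log2 fold change was -0.57 for Mx1, an antiviral GTPase, -0.63 for Zbp1, a sensor of Z-form nucleic acids, -0.40 for Trim30a, an inhibitor of NF-kB signalling in mice, and -0.50 for the ADP-ribosyltransferase Parp14. Mx2 stayed below the filter, with 0.71, 0.24 and 0.57 TPM in DIC and 0.71, 0.46 and 3.55 TPM in control.

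Fold changes were negative in all 7 other interferon-induced genes. Their median was -0.60, or -0.15 without control 4. Ifi27l2a, a small interferon-induced protein, measured 140, 19.9 and 43.6 TPM in DIC and 31.7, 59.8 and 416 TPM in control. By the range of log2(TPM + 1) it varied more than any other tested member inside DIC, where DIC 1 exceeded DIC 2 7.06-fold, and the controls spanned 13.1-fold. The log2 fold change was -0.89 ± 1.03 (SE, limma adjusted p = 0.649), and 0.19 without control 4. Ifi35 measured 31.8, 31.9 and 29.8 TPM in DIC and 37.5, 39.2 and 74.0 TPM in control. The DIC libraries lay together just below controls 1 and 2 without overlap (log2 fold change -0.60 ± 0.26 (SE), limma adjusted p = 0.247). The log2 fold change was -0.92 for Ifi44, -0.87 for Xaf1, which counters an inhibitor of apoptosis, and -0.42 for Phf11d. Of the nucleic acid sensor family to which they belong, Ifi203 had -0.56 and Ifi204 -0.34. Phf11d, at 1.21, 1.07 and 0.83 TPM in DIC and 1.25, 1.08 and 3.32 TPM in control, was among the genes just inside the filter.

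**Figure D4:**
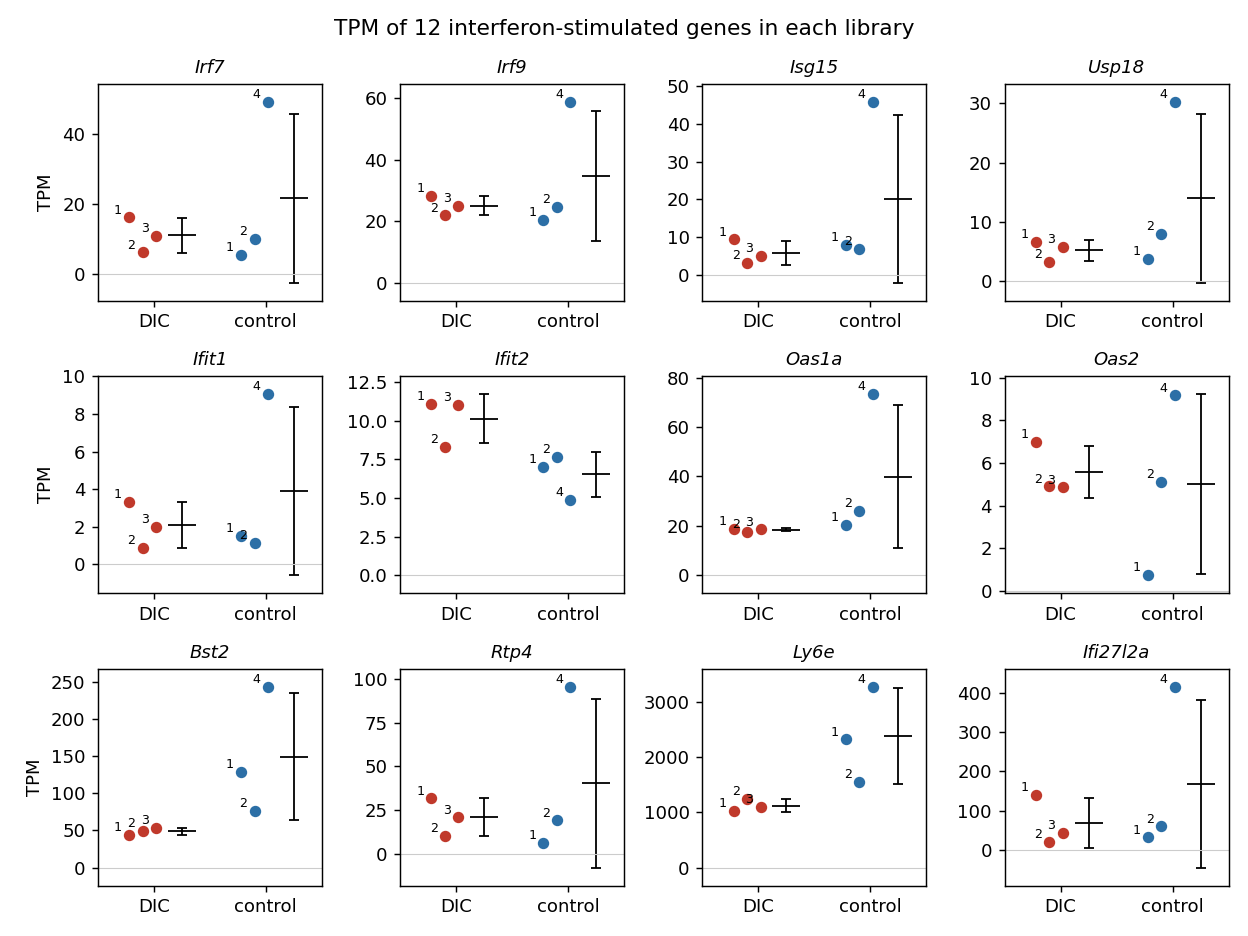
TPM of 12 interferon-stimulated genes in each library, DIC at the left (red) and control at the right (blue), with the library number beside each point and, to the right of the points, the group mean with its SD (n = 3 each, vertical axes differ). Ifit2 is higher and Bst2, Ly6e and Oas1a are lower in every DIC library than in every control, while control 4 is the highest point in all panels but that of Ifit2.

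Upstream of these genes, the ligands were at or near 0. None of 21 interferon genes passed the filter, 15 were listed at 0 in all 6 libraries, and no type I or type III interferon exceeded 0.24 TPM. Ifng, the type II interferon, measured 0.05, 0 and 0.06 TPM in DIC and 1.81, 0 and 2.42 TPM in control. It was listed at 0 in DIC 2 and control 2. Of the 13 receptor and signalling genes, 0 were called (1 lower at an unadjusted limma p under 0.05, against 13.8% of all genes), with a median fold change of -0.04. Ifnar1 averaged 20.9 ± 4.61 TPM in DIC and 20.9 ± 1.34 TPM in control (SD, n = 3 each). Ifnar2 averaged 75.9 ± 5.72 TPM in DIC and 102 ± 17.1 TPM in control (log2 fold change -0.41 ± 0.15 (SE), limma adjusted p = 0.223). Jak1 averaged 57.6 ± 12.3 TPM in DIC and 43.4 ± 7.11 TPM in control, and Tyk2 12.7 ± 2.21 TPM in DIC and 12.5 ± 1.48 TPM in control. Socs1, an inhibitor of the kinases, averaged 0.817 ± 0.136 TPM in DIC and 1.62 ± 0.375 TPM in control and did not overlap (limma adjusted p = 0.249). The most abundant were Ifngr1, a receptor chain for Ifng, at 268 ± 23.7 TPM in DIC and 306 ± 64.0 TPM in control, and the phosphatase Ptpn6, at 234 ± 16.7 TPM in DIC and 201 ± 42.1 TPM in control.

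Genes that lead to interferon production had 13 tested members, Zbp1 among them, and 0 calls (2 lower at an unadjusted limma p under 0.05, where 13.8% of all genes lay). Sting1, the adaptor of the DNA-sensing pathway, measured 36.1, 49.1 and 36.6 TPM in DIC and 85.8, 55.8 and 65.4 TPM in control. The groups did not overlap, and control 4 was not the highest (log2 fold change -0.74 ± 0.20 (SE), limma adjusted p = 0.212). Irf5, a transcription factor downstream of Toll-like receptors, averaged 12.7 ± 3.63 TPM in DIC and 21.8 ± 6.44 TPM in control (limma adjusted p = 0.221). Irf3, which induces interferon beta, averaged 51.2 ± 4.23 TPM in DIC and 58.2 ± 8.60 TPM in control. Of the genes that serve the Toll-like receptors, Unc93b1 averaged 150 ± 12.7 TPM in DIC and 183 ± 28.0 TPM in control, and Myd88 60.9 ± 12.4 TPM in DIC and 67.4 ± 9.05 TPM in control.

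Of 62 other genes known to respond to interferon, 0 were called (2 higher and 13 lower at an unadjusted limma p under 0.05, beside 6.43% and 13.8% of all genes), with a median fold change of -0.23 and of -0.03 without control 4. Their groups did not overlap in 1 gene higher and 14 lower in DIC, beside 7.08% and 18.4% of all genes. The lowest p-values belonged to Ifi205, a relative of Ifi203, and to Tor3a, an ATPase of the endoplasmic reticulum. Ifi205 averaged 2.64 ± 1.06 TPM in DIC and 7.81 ± 2.68 TPM in control, and Tor3a 18.8 ± 3.30 TPM in DIC and 29.1 ± 2.32 TPM in control (both limma adjusted p = 0.212). The most abundant were Ly6c2, a surface protein of monocytes, at 4872 ± 120 TPM in DIC and 5866 ± 1352 TPM in control, and Lgals9, a galectin, at 309 ± 3.27 TPM in DIC and 413 ± 97.8 TPM in control. Ly6a, which encodes the sort marker Sca1, measured 23.8, 18.9 and 15.5 TPM in DIC and 19.7, 33.0 and 49.9 TPM in control. Its controls had the order 4, 2, 1 that most interferon-stimulated genes had, and the groups overlapped at control 1 (log2 fold change -0.71 ± 0.33 (SE), limma adjusted p = 0.273).

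The interferon-inducible GTPases and Irf1, which respond mainly to Ifng, gave 15 tested genes, 0 calls and a median fold change of -0.58, or -0.36 without control 4. Their groups did not overlap in 6 of 15 genes, all lower in DIC, a larger share than the 18.4% of all genes. Their mean log2(TPM + 1) was 3.01, 2.82 and 3.04 in DIC 1 to 3, against 3.05, 3.52 and 3.87 in controls 1, 2 and 4. The groups did not overlap by this mean, but DIC 3 and control 1 were nearly equal. The median range inside DIC was 0.32 for these genes, beside 0.67 for the type I set. Irf1 averaged 39.9 ± 2.05 TPM in DIC and 86.9 ± 44.3 TPM in control, Gbp3 14.1 ± 1.77 TPM in DIC and 30.4 ± 8.97 TPM in control, and Ifi47 58.0 ± 6.91 TPM in DIC and 79.3 ± 16.7 TPM in control (limma adjusted p = 0.212, 0.212 and 0.247). The difference between this set and the type I set was not tested.

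Markers of several other cell types were also highest in control 4. The 9 mast cell and basophil markers summed to 448, 521 and 619 TPM in DIC 1 to 3 and to 1651, 1066 and 3502 TPM in controls 1, 2 and 4. Control 4 was the highest library, as for most of the set, but control 1 lay above control 2 and DIC 1 was the lowest. Prss34, a basophil protease, reached 1800 TPM in control 4. The 10 B lineage markers summed to 113, 202 and 200 TPM in DIC and to 215, 264 and 495 TPM in control, with control 4 the highest and DIC 1 the lowest. Markers of T and NK cells summed to between 1322 and 1792 TPM in DIC and between 1774 and 2245 TPM in control, nearly all of it Nkg7. The mean log2(TPM + 1) of the 8 tested markers on that list, to which low genes add as much, was 2.63, 2.23 and 2.59 in DIC 1 to 3, against 2.95, 3.04 and 3.59 in controls 1, 2 and 4. By this mean the groups did not overlap, and the order of libraries inside each group was that of the interferon-stimulated genes. DIC 1 and DIC 3 were nearly equal, and the sums had another order inside DIC. The NK cell genes Klrb1c, Ncr1, Gzma and Il2rb lay lower in every DIC library than in every control, 4 of 8 tested markers against 18.4% of all genes, and were highest in control 4. Gzma, a granule protease, measured 2.33, 0.84 and 0.48 TPM in DIC and 3.64, 2.87 and 9.56 TPM in control. Among these 4 NK cell genes, Il2rb alone had the order of the interferon-stimulated genes in both groups. The T cell marker Cd3e stayed below the filter and was listed at 0 in DIC 2. Markers of monocytes, macrophages and dendritic cells summed to between 5025 and 5332 TPM in DIC and between 4669 and 7449 TPM in control, nearly all of it Ly6c2.

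Inside DIC, the order 1, 3, 2 of the interferon-stimulated genes was also that of neutrophil and erythroid markers. The neutrophil list summed to 225041, 153700 and 188522 TPM in DIC 1 to 3 and to 41681, 124638 and 29775 TPM in controls 1, 2 and 4, so that control 4 was the lowest library. Its late genes varied most, with Retnlg at 5102, 81.4 and 1953 TPM in DIC and 63.7, 109 and 72.0 TPM in control. Erythroid markers summed to 1489, 488 and 1031 TPM in DIC and to 447, 535 and 448 TPM in control. Immediate-early and heat-shock genes, which respond to handling, summed to 485, 512 and 1473 TPM in DIC and to 1389, 391 and 1251 TPM in control, an order that differs from that of the set. The part of these cells and states in the interferon-stimulated values was not tested. With the neutrophil list removed and TPM rescaled, the median fold change of the set was -0.22, with 25 still negative, and that of all genes 0.10.

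**Figure D5:**
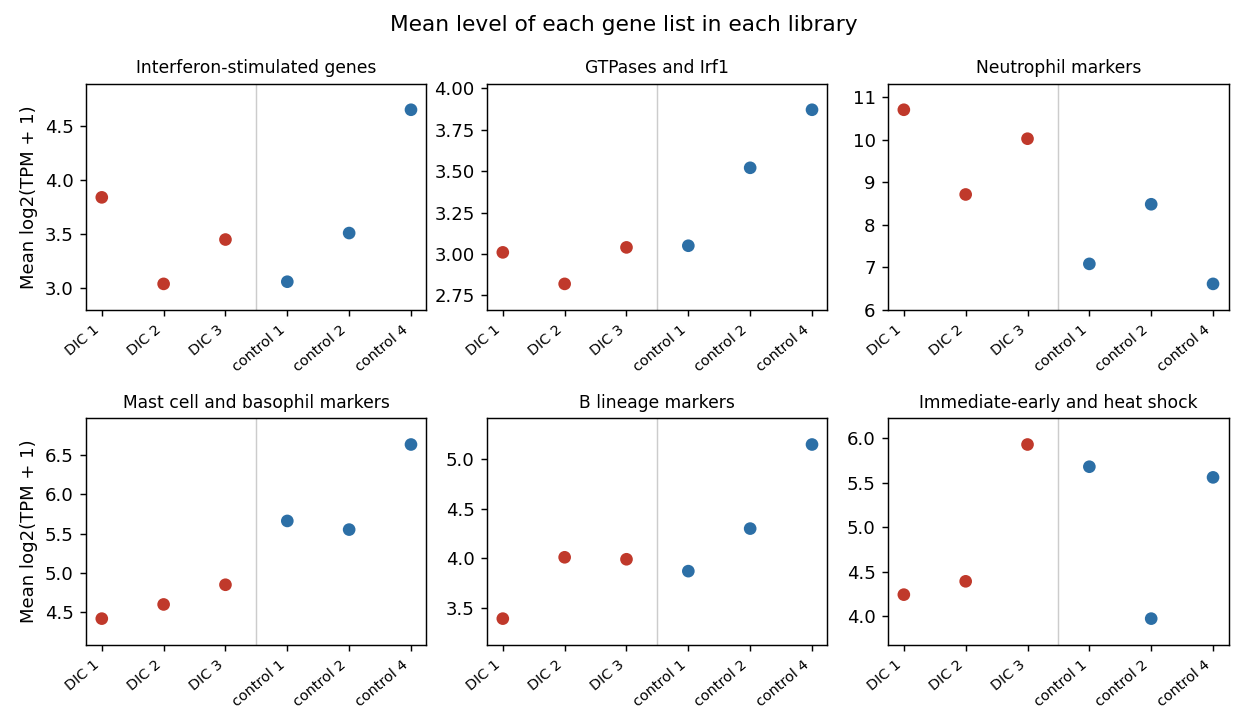
Mean log2(TPM + 1) of the tested genes of 6 lists in DIC 1 to 3 (red) and controls 1, 2 and 4 (blue), with vertical axes that differ and do not start at 0. The interferon-stimulated genes are highest in control 4 at 4.65 and lowest in DIC 2 at 3.04, and the mast cell and B lineage lists are also highest in control 4.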

How the data were processed

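Libraries were made from sorted LSK cells with a SMART-Seq v4 low-input kit, which does not mark strand, and read as pairs on a NovaSeq instrument, per the labels' protocols. The authors deposited TPM values for 56750 rows in 6 libraries, each summing to 1000000 or 1 more, and the submitters' processing notes name fastp 0.19.5, HISAT2 2.1.0, StringTie 2.1.2 and the build GRCm39. Which annotation release was used is not stated there. TPM keeps no depth, so the depth is unknown and no counting interval is given. Between 20474 and 22720 genes lay above 0 in a library. Columns of controls 1 and 4 could be tied to the control group but not to single samples. No 2 libraries were repeats (15 pairwise correlations of log2(TPM + 1), 0.907 to 0.964).

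Symbols came from an annotation of GRCm38 by identifier (52081 matched). StringTie divides reads among overlapping and near-identical genes. In that annotation 9 members have a copy at 95% identity or more over at least 300 bases, 11 share exon bases with another gene and 6 of these do so on the opposite strand. Besides Ifit3, Ifit3b and Oas1a, the copies touch Isg15, Herc6, Mx2, Ifi203, Ifi204 and Phf11d, whose levels are therefore uncertain. Promoter sequences are from RefSeq (GRCm38.p6).

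The fit took genes that reached 1 TPM in 3 or more libraries, as log2(TPM + 1). It used limma 3.58.1 under R 4.3.3, with group alone as a term and a mean-variance trend. P-values are two-sided, with Benjamini-Hochberg adjustment over 13496 genes and a threshold of 0.05. Fold changes are DIC minus control on that scale, which understates changes of low genes. With 3 libraries a group the exact permutation test has a smallest p of 0.1, and it was not run. Beyond 3 mice per group the replication is not described, so that a p-value speaks of the spread among these 6 libraries. The fit was tested on simulated data in which each gene varied independently. Genes that vary together by library, as many of these did, were not covered by that check.

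The members and lists were chosen with earlier results of these data known. Values per library are given, in each role, for the members with the highest mean, the lowest p and the widest control range, and of other lists for the genes with the lowest p or highest mean and a fixed few. The values of 1 signalling gene are not reported here. Kit, Siglech, Retnlg, the members of near-copy pairs and those nearest the filter were added after their values were seen. Alternatives covered the pseudocount, filter, scaling, model, replicate block and each library left out.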

Additional observations from a re-analysis of the deposited data

How the results depend on the processing

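With all 6 libraries, 0 of 36 genes were called under a pseudocount of 0.1, no filter, a filter of 5 TPM (27 genes left), quantile normalization, removal of the neutrophil list with rescaling, no mean-variance trend, array weights and the replicate block, and the signs of all genes tested held under each of these except the block. With array weights Bst2 and Ly6e came near the threshold (both limma adjusted p = 0.0578, against 0.212 in the main fit). Removing the neutrophil list left 3 genes without overlap between groups, against 5. Leaving out 1 library at a time, the called members numbered 0 to 2, those without overlap 6 to 11 (fewer libraries leave less room for overlap), and the other pathway genes called 0 to 6. The median fold change of the members ran from -0.702 without control 1 to 0.137 without control 4, and the median control range from 0.543 without control 4 to 1.67. The sign turned in 14 members and held in 22. The ranges were -1.05 to 0.43 for Irf7, -0.60 to 0.14 for Irf9, -0.42 to 0.13 for Ifih1, -0.19 to 0.39 for Herc6, -0.79 to 0.33 for Ifit1, -0.05 to 0.95 for Ifit3, -0.28 to 1.00 for Oas2, -0.09 to 1.00 for Oas3, -0.90 to 0.26 for Oasl2, -0.11 to 0.87 for Rsad2, -0.65 to 0.01 for Trim30a, -1.13 to 0.71 for Rtp4, -1.65 to 0.19 for Ifi27l2a and -0.94 to 0.34 for Ifi204. Same-numbered libraries did not deviate together (r = -0.0676 for number 1 and -0.102 for number 2). With 2 such pairs, centred inside groups of 3, this check cannot settle whether the numbers pair the mice. With the replicate block, which DIC 3 and control 4 cannot enter as a pair, the median was 0.18. Neither of these libraries adds to the fold changes of the block, which therefore also leave out control 4. The sign turned in 11 members, to 0.40 for Irf7, 0.14 for Irf9, 0.22 for Ifih1, 0.05 for Dhx58, 0.31 for Ifit1, 0.24 for Oasl2, 0.14 for Zbp1, 0.01 for Trim30a, 0.65 for Rtp4, 0.28 for Ifi27l2a and 0.40 for Ifi204. An overlap count needs no fit and has no block value. A motif window of only the 250 bases before the start, chosen after seeing the data, held the ISRE core in 11 of 27 promoters (40.7% against 3.46% of all genes). Depth is unknown, so the counting error of the 18 members that average under 10 TPM is unknown too.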

Other observations

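Slfn4, a myeloid gene induced by interferon, went against the set, and Cxcl10, a chemokine, varied widely among the controls. Both were chosen after their values were seen. Slfn4 measured 133.73, 16.21 and 53.07 TPM in DIC 1 to 3 and 6.63, 15.92 and 15.53 TPM in controls 1, 2 and 4, a log2 fold change of 1.96 ± 0.71 (SE) that did not pass (limma adjusted p = 0.218). It had the order 1, 3, 2 inside DIC, and DIC 2 lay just above controls 2 and 4. Cxcl10 measured 3.29, 1.64 and 4.62 TPM in DIC and 39.2, 3.12 and 60.0 TPM in control, so that controls 1 and 4 stood apart from control 2 (limma adjusted p = 0.226). Ifng, which stayed below the filter, was above 1 TPM in the same controls, 1 and 4. Immediate-early and heat-shock genes split the controls likewise, at 1389, 391 and 1251 TPM in controls 1, 2 and 4, but reached 1473 TPM in DIC 3. Whether any of these are linked was not tested.

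Relatives of Ifi203 and Ifi204 that were no members were also chosen after their values were seen. They differed in whether the groups overlapped, but each was highest in control 4, as were 23.5% of all tested genes. Ifi205, Ifi209, Ifi211 and Mndal lay lower in every DIC library than in every control, as did 18.4% of all tested genes. The groups overlapped in Ifi206, Ifi207, Ifi208 and Ifi213, of which Ifi207 and Ifi208 stayed below the filter. Ifi213 measured 3.2, 1.75 and 1.48 TPM in DIC and 0.14, 1.29 and 7.27 TPM in control, with a fold change of 0.14 on the log2 scale (limma adjusted p = 0.922). Mndal measured 17.6, 17.7 and 17.7 TPM in DIC and 25.7, 28.4 and 67.5 TPM in control, and Ifi209 15.3, 17.8 and 14.2 TPM in DIC and 37.8, 18.1 and 52.5 TPM in control. Neither Mndal nor Ifi209 passed (both limma adjusted p = 0.213). Mndal is 97.7% identical to Ifi204 over 486 bases, which makes the levels of both uncertain.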
